A study of Neogale vison with 6 samples.

Results

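The immediate early genes examined here were FOS, FOSB, FOSL1, FOSL2, JUN, JUNB, JUND, EGR1, MYC and IER2. They were chosen by symbol in the count table, which lists 24526 mink genes, and all 10 were found there. RNA-seq was performed on Mv1Lu, an epithelial cell line from mink lung, with 3 libraries from untreated cells, the control, and 3 from cells after cholesterol depletion (CD). For CD, the cells were kept for 16 h in 10% lipoprotein-deficient serum (LPDS) with 50 μM lovastatin, a statin that inhibits HMG-CoA reductase, and 50 μM mevalonate, the product of that enzyme. The sources used here do not give the serum of the control cells of these libraries. In the study's assay of reactive oxygen species, the medium held fetal calf serum for untreated cells and LPDS for CD cells. For these libraries it is not known whether the serum differed too, and the parts of the agents given together cannot be told apart. The question addressed was whether prolonged CD changes the transcript levels of these genes at this single time.

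Immediate early genes are transcribed within minutes of a stimulus such as a growth factor or a stress, without the need for new protein, and for many of them the transcript fades within hours. AP-1 is a dimer of basic leucine zipper proteins. JUN proteins pair with each other or with FOS proteins, whereas FOS proteins need a partner, and JUN is activated through phosphorylation by JNK. EGR1 is a zinc finger factor and MYC a helix-loop-helix factor that binds DNA with MAX.

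The reads counted on genes numbered between 13473820 and 18633764 in the control and between 14426841 and 16309954 in the CD libraries. Levels are given as CPM, the reads of a gene scaled to a common total of reads on genes, after TMM scaling, which corrects for differences in library composition. Levels and shares with ± are means with the SD over the 3 libraries of a group, and log2 fold changes with ± carry their standard error (SE). Tests are the quasi-likelihood test of edgeR, called at an FDR (Benjamini-Hochberg over 12148 genes) under 0.05. In bulk RNA, fewer cells that use a gene and less of its RNA per cell cannot be told apart. Of 10 epithelial markers, 8 were found by symbol. Among them, KRT7 and KRT19 were abundant, whereas CDH1, EPCAM and CLDN7, which mark epithelium in tissue, had 8, 7 and 4 counts over the control libraries and 18, 2 and 1 over the CD libraries. The summed epithelial markers lay between 7919 and 8568 CPM in control and between 1675 and 2075 CPM in CD, a fall carried by KRT7. Of the 5 tested, 2 were lower and 1 was higher, against 22.9% lower and 24.8% higher among all genes tested. The higher marker was CLDN4, with 27 reads in control and 326 in CD (FDR 9.61e-06, edgeR). The summed markers of fibroblasts (7 of 7 in the table) lay at 310 to 387 CPM in control and at 183 to 232 CPM in CD, those of endothelium (4 of 4) at 206 to 221 and at 75.8 to 124 CPM, and those of leukocytes (4 of 5) at 5.13 to 5.66 and at 16.9 to 22.4 CPM. TEK made up nearly all of the endothelial sum, while VWF had 5 reads in control and 56 in CD (FDR 8.82e-04, edgeR) and PECAM1 0 and 11. CD68 made up nearly all of the leukocyte sum, with PTPRC at 0 and 1 counts. Of 5 fibroblast markers tested, 4 were lower and 0 higher. Of 2 endothelial markers tested, 1 was lower and 1 higher, and the 1 leukocyte marker tested was higher. The part of these shifts in the results was not tested.

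JUN transcripts rose 10.6-fold upon CD, and JUND, FOSL2, MYC, JUNB and EGR1 rose by smaller amounts. IER2 fell, and FOS and FOSL1, with log2 fold changes of 0.46 and 0.17, did not pass the test. FOSB had too few reads to be tested. Of the 9 members tested, 6 were thus higher and 1 was lower, against 24.8% and 22.9% of all genes tested (47.7% in either direction). The median log2 fold change was 0.64 over the 9 members and 0.057 over all genes. For 6 of the 10 members the CPM of the groups did not overlap, 5 with CD above control and 1 with CD below, while 58% of all genes tested did not overlap (29.5% above and 28.6% below).

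**Figure D1:**
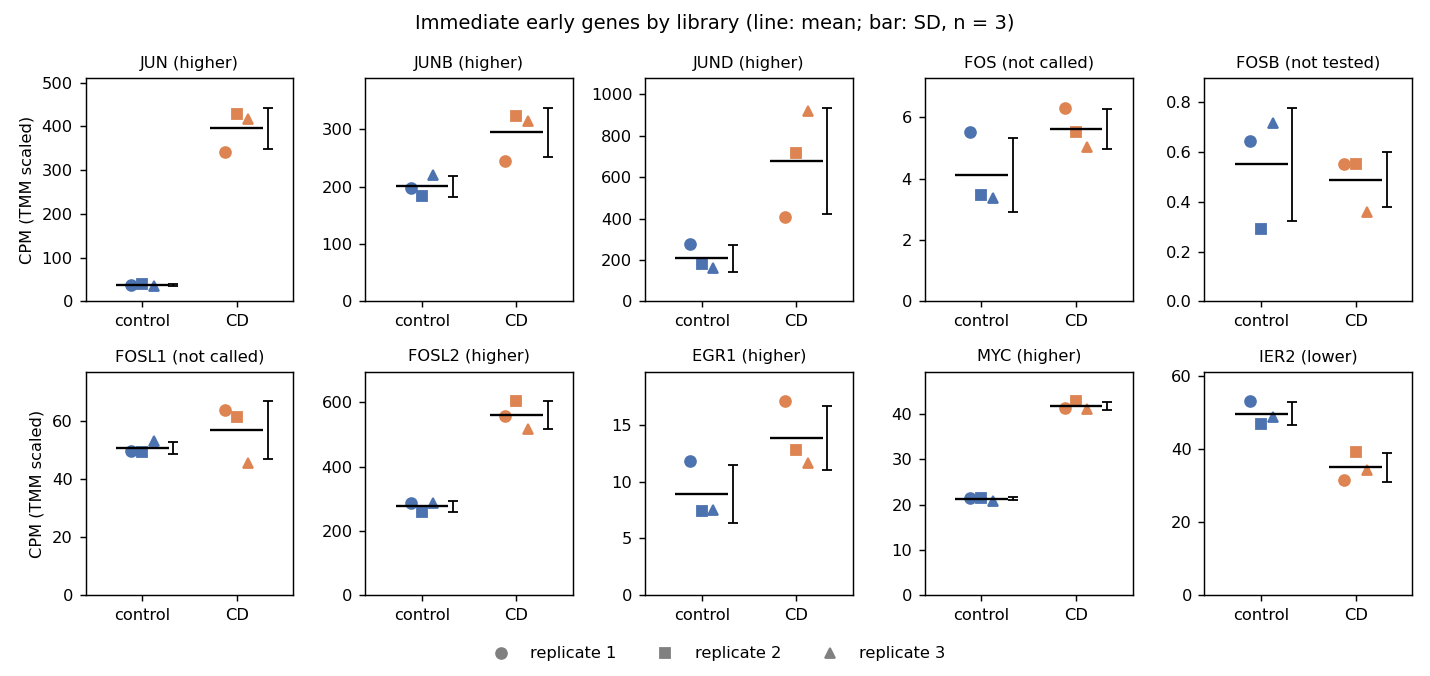
CPM after TMM scaling (y axis, linear from 0, its range set per gene) of the 10 immediate early genes in the control and CD libraries, with a symbol for each replicate number, a line for the mean and a bar for the SD (n = 3). JUN, MYC and FOSL2 show a wide gap between the groups, JUND spreads from 408 to 917 CPM in CD, and the groups of FOS, FOSB, FOSL1 and EGR1 overlap.

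Among the JUN proteins, JUN itself, the classical partner of FOS, stood at 37.7, 39.7 and 34.7 CPM in the control libraries (here and below in the order of replicates 1, 2 and 3) and at 342, 429 and 416 CPM in the CD libraries. The lowest CD library was 8.61 times the highest control library. The means were 37.3 ± 2.50 and 396 ± 47.3 CPM, a log2 fold change of 3.41 ± 0.14 (SE; edgeR FDR 1.56e-07). This corresponds to a 10.6-fold increase with a 95% interval of 8.60 to 13.1, and 92 of the 12148 genes tested, JUN included, had a log2 fold change at least as high. JUN (ENSNVIG00000008810) was called in all 16 alternative settings, among them the tests that left out 1 library, with log2 fold changes between 3.31 and 3.51.

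JUND (ENSNVIG00000017813), which in many cells is expressed steadily and responds less to serum than JUN, had 279, 182 and 160 CPM in control and 408, 714 and 917 CPM in CD. The groups did not overlap, but the CD libraries differed among themselves by 2.25-fold and the control libraries by 1.74-fold. With means of 207 ± 63.0 and 680 ± 257 CPM, the log2 fold change of JUND was 1.72 ± 0.29 (SE; edgeR FDR 9.11e-04), or 3.28-fold (95% interval 2.09 to 5.15). The coefficient of variation of JUND in CD was 37.8%, while the median over all genes tested was 17.0%. Without CD replicate 3, the highest library, JUND was not called (log2 fold change 1.41, FDR 0.0669, edgeR).

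JUNB (ENSNVIG00000003745), a JUN protein that is often a weaker activator than JUN, was at 197, 183 and 221 CPM in control and at 245, 324 and 315 CPM in CD. All CD libraries lay above the control libraries, the lowest of them by a factor of 1.11. The means of JUNB were 200 ± 18.8 and 295 ± 43.0 CPM, which gives a 1.47-fold increase (95% interval 1.19 to 1.82, log2 fold change 0.56 ± 0.14 SE, edgeR FDR 0.00722). The call was made in all 16 alternative settings, with an FDR of up to 0.0462 (edgeR).

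**Figure D2:**
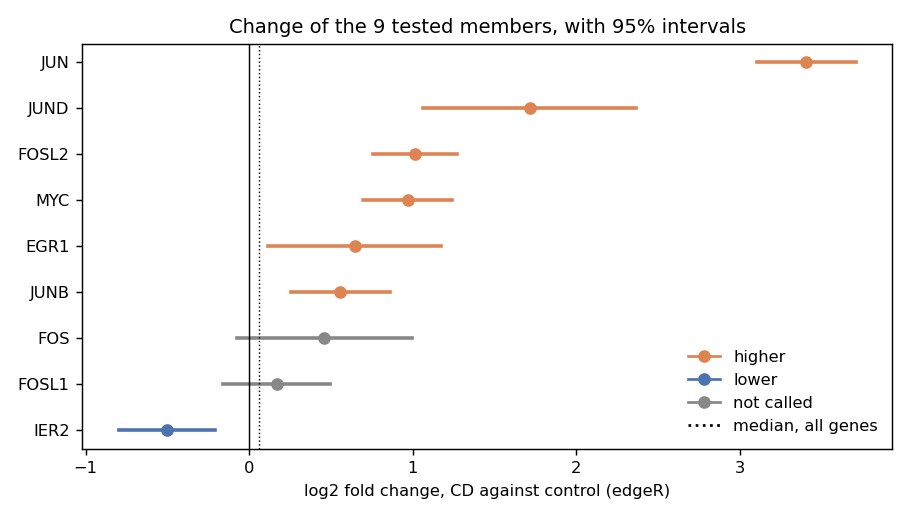
Log2 fold change of CD against control (x axis) for the 9 tested immediate early genes, with points for the edgeR estimate and bars for the 95% interval, colored by call. The interval of JUN, from 3.10 to 3.71, lies above those of the other 8 genes, and the intervals of FOS and FOSL1 include 0.

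The unequal changes of JUN, JUNB and JUND can also be read as shares of the reads of the family. These shares follow from the fold changes above, are given as a description, and are not corrected for transcript length. JUN held 7.33%, 9.78% and 8.35% of the reads of the family in control, and 34.3%, 29.2% and 25.2% in CD. The 95% Clopper-Pearson interval, which covers counting error only, was at most 10.6% in control and at least 24.7% in CD. The share of JUN was 21.1 percentage points higher in CD (8.49 ± 1.23% and 29.6 ± 4.56%). JUNB went from 45.6 ± 7.35% to 22.0 ± 2.78% of these reads. The share of JUND, 45.9 ± 7.90% in control and 48.4 ± 7.34% in CD, differed by less than the spread between replicates. Summed over the family, the level was 445 ± 59.8 CPM in control and 1370 ± 338 CPM in CD, a ratio of 3.08 (p = 0.1 in a two-sided exact permutation test, the smallest value that 3 libraries against 3 allow).

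**Figure D3:**
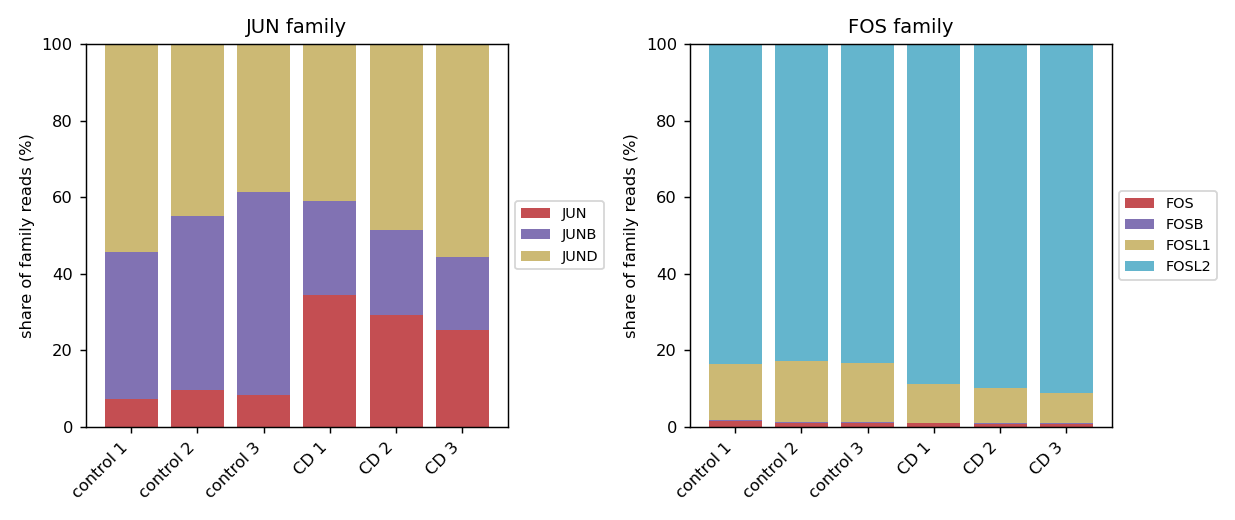
Share of each gene in the summed reads of the JUN family (left) and of the FOS family (right), in percent, as stacked bars for the 6 libraries. JUN takes at most 9.78% in the control and at least 25.2% in the CD libraries, and FOSL2 takes most of the FOS family reads in each library.

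FOS (ENSNVIG00000015338), the founding member of its family and a typical transient serum response gene, was detected at low levels. It was at 5.51, 3.47 and 3.36 CPM in control and 6.33, 5.52 and 5.04 CPM in CD, from 48 to 103 reads per library. Control replicate 1 lay above CD replicate 3, so the groups overlapped. The log2 fold change of FOS was 0.46 ± 0.24 (SE; edgeR FDR 0.14), and the 95% interval of its fold change ran from 0.949 to 1.99. FOS was not called in any of the 16 alternative settings, but without control replicate 1 its log2 fold change was 0.72, just short of the threshold (edgeR FDR 0.0507). FOSB (ENSNVIG00000008682), a close relative of FOS with a similar transient induction, had 9, 4 and 13 reads in control and 9, 9 and 5 in CD. It was below the filter on low counts, and the ratio of its summed reads, scaled by depth, was 0.875 with a 95% Clopper-Pearson interval of 0.477 to 1.595 for counting error.

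FOSL1 (ENSNVIG00000015287), which is induced later than FOS and often through ERK, was at 49.7, 49.4 and 53.0 CPM in control and at 63.9, 61.4 and 45.6 CPM in CD. CD replicates 1 and 2 lay above and CD replicate 3 below all control libraries. Its log2 fold change was 0.17 ± 0.15 (SE; 95% interval -0.16 to 0.49, edgeR FDR 0.37), and without CD replicate 3 it was called higher, at 0.27 (FDR 0.0416, edgeR).

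FOSL2 (ENSNVIG00000015807), a FOS relative that like FOSL1 lacks the strong activation domain of FOS, had 286, 257 and 286 CPM in control and 559, 603 and 516 CPM in CD. Each CD library was at least 1.80 times the highest control library. The means of FOSL2 were 277 ± 16.7 and 559 ± 43.7 CPM, a 2.02-fold increase (95% interval 1.69 to 2.41, log2 fold change 1.01 ± 0.11 SE, edgeR FDR 7.27e-05), called in all 16 alternative settings. FOSL2 held 83.3 ± 0.404% of the reads of the FOS family in control and 89.9 ± 1.12% in CD, and FOSL1 went from 15.3 ± 0.708% to 9.12 ± 1.05%. Together, FOSL1 and FOSL2 made up 98.6 ± 0.347% of these reads in control and 99.0 ± 0.0974% in CD, a difference of 0.415 percentage points.

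EGR1 (ENSNVIG00000014722), a factor induced by ERK signaling and by stress, was at 11.8, 7.37 and 7.49 CPM in control and 17.1, 12.8 and 11.7 CPM in CD. The lowest CD library was slightly below the highest control library, replicate 1. With means of 8.89 ± 2.53 and 13.8 ± 2.85 CPM, EGR1 was called higher by a narrow margin (log2 fold change 0.64 ± 0.24 SE, edgeR FDR 0.0462), or 1.56-fold with a 95% interval of 1.08 to 2.25. The call was lost without control replicate 2 (0.52, FDR 0.17), control replicate 3 (0.53, FDR 0.18), CD replicate 1 (0.48, FDR 0.12) or CD replicate 2 (0.66, FDR 0.0842), and also without TMM scaling (0.67, FDR 0.0607, all edgeR). Without control replicate 1 the log2 fold change was 0.90 (FDR 0.0193, edgeR). This library had the highest level of FOS, FOSL2, JUND, EGR1, MYC and IER2 among the controls. Of these, its ratio to the lowest control library was largest for JUND (1.74) and smallest for MYC (1.03). The library also had the largest share of unmapped reads in the series (18.4%, against 3.54% to 13.6% in the others). In CD replicates 1, 2 and 3 this share was 3.54%, 4.33% and 9.37%. In that order JUND rose, while FOS and EGR1 fell. The part of the unmapped reads in these levels was not tested.

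MYC (ENSNVIG00000008865), a regulator of growth and ribosome production, was at 21.6, 21.5 and 20.9 CPM in control and at 41.3, 42.8 and 41.0 CPM in CD. The libraries within a group were nearly alike, with coefficients of variation of 1.82% and 2.26%, and the groups did not overlap. MYC had 298 to 379 reads per library in control and 570 to 698 in CD. Counting error alone at these reads would exceed this spread. MYC rose from 21.3 ± 0.387 to 41.7 ± 0.942 CPM, a 1.96-fold increase (95% interval 1.62 to 2.37, log2 fold change 0.97 ± 0.12 SE, edgeR FDR 1.43e-04), and it was called in all 16 alternative settings. IER2 (ENSNVIG00000004234), a small nuclear protein of the serum response, was the only member called lower. Its level was 53.0, 46.9 and 48.8 CPM in control and 31.4, 39.2 and 34.3 CPM in CD, with every CD library below the control libraries. The decrease of IER2 was 1.42-fold (49.5 ± 3.12 to 35.0 ± 3.97 CPM, log2 fold change -0.50 ± 0.13 SE, edgeR FDR 0.0105). Without control replicate 1, IER2 was not called (log2 fold change -0.45, FDR 0.0602, edgeR).

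The direction in which the CD libraries differed was not shared by the members. CD replicate 1 was the lowest CD library for JUN, JUNB, JUND and IER2 and the highest for FOS, FOSL1 and EGR1, while CD replicate 3 was the lowest for FOS, FOSL1, FOSL2, EGR1 and MYC. The genes most like FOS, JUN, EGR1 and MYC were sought by the Pearson correlation of log2 CPM over the 6 libraries, among tested genes with a symbol. For EGR1 these were TRIM24 (0.995), BPTF (0.981) and FOS (0.978), and for FOS they were TRIM24 (0.985), EYA1 (0.983) and EGR1 (0.978). For JUN they were RRAD (0.9996), YWHAH (0.9996) and COL7A1 (0.9990), and for MYC ZNF34 (0.9997), RASSF3 (0.9996) and HBP1 (0.9992). The treatment differs between the groups, so any gene with a large and even difference between them correlates highly with JUN and MYC.

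The genes around the members were followed with 6 lists. They were chosen with earlier results of these data known, so an excess over all genes is a description only. Each count is set beside all 12148 genes tested, of which 24.8% were higher and 22.9% lower (median 0.057 on the log2 scale). Of 12 further partners of the AP-1 zipper, 10 were found by symbol and 7 were tested, of which 4 were higher and 1 was lower (median log2 fold change 0.79). ATF3, a stress-induced factor that pairs with JUN proteins, was at 44.7, 44.9 and 49.2 CPM in control and at 596, 551 and 607 CPM in CD. It was 12.6-fold higher (46.3 ± 2.56 to 585 ± 29.7 CPM, log2 fold change 3.66 ± 0.12 SE, edgeR FDR 7.93e-08). MAFK and MAFG, small MAF proteins that dimerize with NRF2, were 2.76-fold and 2.18-fold higher (FDR 3.33e-05 and 5.22e-05, edgeR). JDP2, a repressor that binds JUN, was 1.95-fold lower (29.3 ± 3.67 to 15.1 ± 2.05 CPM, FDR 9.37e-04, edgeR).

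**Figure D4:**
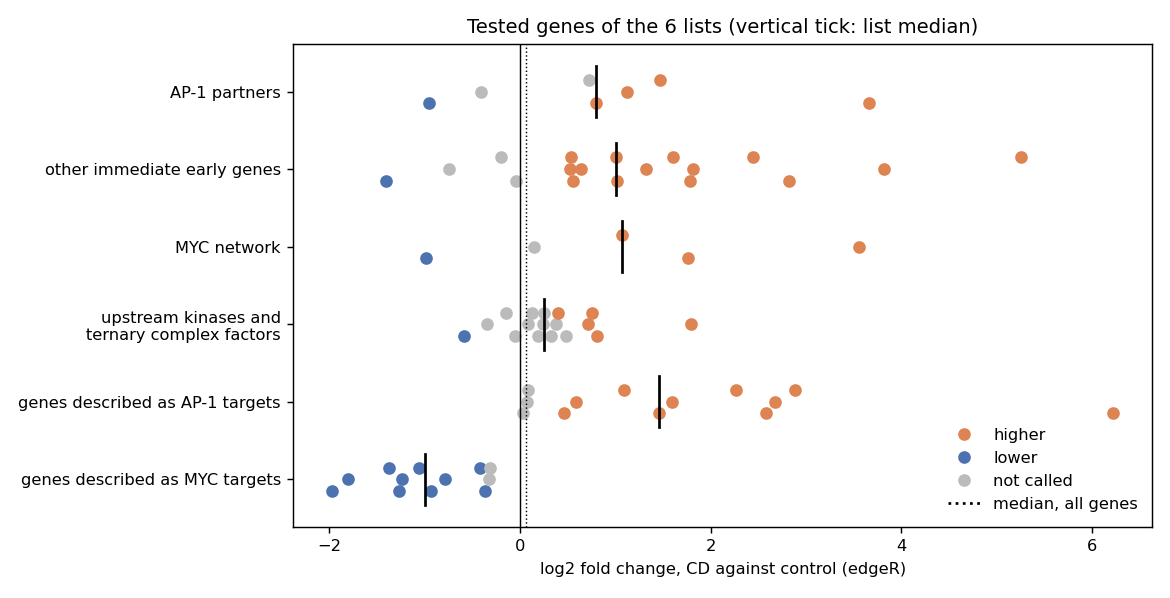
Log2 fold change of CD against control (x axis, edgeR) for the tested genes of the 6 lists, with a point for each gene, colored by call, a tick for the list median and a dotted line for the median of all genes. Of the 12 MYC targets, none lies above 0, and of the 13 AP-1 targets, none lies below.

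Of 26 other immediate early genes, 21 were found by symbol and 18 were tested. Of these, 14 were higher and 1 was lower (24.8% and 22.9% of all genes), and the median log2 fold change was 1.01 (0.057 over all genes). NR4A1, an orphan nuclear receptor, rose from 1.24 ± 0.427 to 47.7 ± 3.35 CPM, a log2 fold change of 5.26 ± 0.23 (SE; edgeR FDR 2.68e-07). EGR3, a relative of EGR1, had 2, 4 and 9 reads in control and 92, 95 and 34 in CD (log2 fold change 3.82 ± 0.47 SE, edgeR FDR 1.22e-04). BTG1, an antiproliferative gene, was 7.05-fold higher (FDR 3.46e-07, edgeR). CCN2, a matricellular protein and YAP target, fell from 5.02 ± 0.305 to 1.89 ± 0.230 CPM (FDR 3.93e-04, edgeR), while its relative CCN1 was not called (684 ± 59.3 and 662 ± 59.0 CPM, FDR 0.77, edgeR). SRF, the factor that binds serum response elements of genes such as FOS and EGR1, was not called either (45.04 ± 5.25 and 39.1 ± 6.26 CPM, FDR 0.31, edgeR).

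Among 19 upstream kinases, ternary complex factors and cofactors, 17 were tested, of which 5 were higher and 1 was lower, while 24.8% of all genes tested were higher and 22.9% lower. The median log2 fold change was 0.26, against 0.057 over all genes, and 11 of these genes were not called. MAPK9, which encodes JNK2, was 3.45-fold higher (25.9 ± 3.28 to 89.3 ± 6.02 CPM, FDR 5.31e-06, edgeR), whereas MAPK8, which encodes JNK1, was not called (8.02 ± 0.263 and 9.57 ± 2.17 CPM, FDR 0.32, edgeR). Whether their fold changes differ was not tested. MAPK3 and MAP2K1, which encode ERK1 and its activating kinase MEK1, were 1.75-fold and 1.69-fold higher (FDR 3.85e-04 and 0.00107, edgeR). EIF2AK2, the double-stranded RNA-dependent kinase PKR, was 1.51-fold lower (FDR 0.0274, edgeR). Its call was lost without control replicate 1 (FDR 0.0955), control replicate 2 (FDR 0.0984) or CD replicate 2 (FDR 0.0609), and without TMM scaling (FDR 0.0503, all edgeR). The number of higher genes of this list was 3 without control replicate 1 or 2 and 9 without CD replicate 3.

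Of 20 genes described as AP-1 targets, 16 were found by symbol and 13 were tested. Of these, 10 were higher (24.8% of all genes), and the median was 1.45 on the log2 scale (0.057 over all genes). None was called lower, since the lowest log2 fold change of the 13 genes was 0.029, and DESeq2 and limma-voom also called 0 lower. IL8, a chemokine, had 1 read over the control and 103 over the CD libraries, a ratio of 102 with a 95% Clopper-Pearson interval of 17.9 to 4062 for counting error. MMP13, a collagenase, had 21 and 138 reads in total and was 6.39-fold higher (FDR 2.66e-04, edgeR).

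Among the genes described as MYC targets, most fell in CD, while MYC itself and its antagonists MXI1, MXD1 and MXD4 rose. Whether these changes are linked was not tested. Of 12 genes of the MYC network, 8 were found by symbol, while MAX, MXD3, MNT and MLX were not. Of the 5 tested, 3 were higher and 1 was lower (24.8% and 22.9% of all genes). MXI1, MXD1 and MXD4, which compete with MYC for MAX and repress transcription, were 11.7-fold, 3.40-fold and 2.09-fold higher (FDR 2.00e-06, 2.48e-05 and 8.85e-05, edgeR). MXI1 had 1.58, 2.38 and 2.97 CPM in control and 30.0, 26.0 and 26.6 CPM in CD. MYCL, a relative of MYC, fell from 16.4 ± 0.361 to 8.26 ± 0.489 CPM (FDR 5.62e-04, edgeR). Of 18 genes described as MYC targets, 12 were found and tested, of which 10 were lower (22.9% of all genes), and the median was -0.998 on the log2 scale (0.057 over all genes). None was called higher, since the log2 fold changes of the 12 genes lay between -1.97 and -0.31, and DESeq2 and limma-voom also called 0 higher. SRM, which makes spermidine, fell from 275 ± 8.27 to 70.3 ± 8.81 CPM (log2 fold change -1.97 ± 0.12 SE, edgeR FDR 1.68e-06). TERT, the catalytic subunit of telomerase, and NOP56, a nucleolar protein of ribosome assembly, were 3.49-fold and 2.60-fold lower (FDR 6.98e-06 and 7.34e-06, edgeR).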

How the data were processed

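RNA of 3 control and 3 CD libraries was analysed, grouped by the sample titles. The sources used here do not say whether the replicates were separate cultures, so the p-values measure the spread between these samples. Per the methods and the processing notes, reads were trimmed with fastp 0.20.1 and aligned to the mink assembly NNQGG.v01 with STAR 2.7.2a. The program and strand setting used for counting are not given in the sources used here, so counts of overlapping or antisense genes are uncertain. The authors deposited raw counts per gene and, per library, a normalized signal (counts divided by a size factor, from R 4.0.3 and DESeq2 1.30.1). Multiplied by that factor, 100% of the 147156 signal values were whole reads within 0.01 reads and equal to the counts 4 rows further down the count table, while the identifiers beside them follow another order (Spearman correlation with the counts by identifier at most 0.00674 in size). They were paired by row and used only for alternatives. The count test on these recovered reads called 5800 of 12146 genes.

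Rows that name no gene held 29.3% to 47.2% of the reads and were left out. Counts were tested with edgeR 4.0.16 in R 4.3.3 (filterByExpr with a minimum count of 10 and total of 15, TMM, glmQLFit with robust estimation, condition as the only term). A standard error is the log2 fold change divided by the square root of F. On simulated counts of 12148 genes for this comparison, with 200 genes changed by 1 on the log2 scale, 81.5% were called, with 6 false calls. Far fewer genes were changed there than were called in the data, and the spread followed a trend over expression. These figures are thus no measure of the error rates in the data. Alternatives were DESeq2 1.42.0, limma 3.58.1 (voom, and log2 of the signal with a pseudocount of 1), other scalings, filters and FDR, a replicate block and each library left out. Genes named are the members, the 3 highest and 3 lowest called genes of each list, and the 3 genes most correlated with FOS, JUN, EGR1 and MYC. A gene that this rule names among the AP-1 targets is not reported here. SRF, CCN1, MAPK8 and the genes of the closing section were named after their values were seen. The members and lists were chosen with earlier results of these data known.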

Additional observations from a re-analysis of the deposited data

How the results depend on the processing

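The direction of the 9 tested members was the same in all 16 alternative settings. JUN, JUNB, FOSL2 and MYC were called, and FOS was not called, in each of them. Over the tests that left out 1 library, the log2 fold changes lay between 0.32 and 0.72 for FOS, 0.078 and 0.27 for FOSL1 (called higher without CD replicate 3), 1.41 and 1.99 for JUND (not called without CD replicate 3), 0.48 and 0.90 for EGR1 (not called in 4 of the 6) and -0.62 and -0.42 for IER2 (not called without control replicate 1). The levels showed no pairing by replicate number (correlation of the deviations of same-numbered libraries -0.024, -0.33 and -0.18), and no library correlated best with its own number. With 3 libraries per group, this cannot exclude that same-numbered libraries were prepared together. With the replicate number as a block, 5408 genes were called, and 5 members were higher and 1 was lower. JUND was the member not called then, with a log2 fold change of 1.69 (edgeR FDR 0.0722). With total counts in place of TMM, EGR1 was not called (0.67), nor was a kinase or cofactor called lower (0). At an FDR of 0.01, 2006 genes were higher, no member was lower (0), and 3 kinases or cofactors were higher and 0 lower. With 1 library left out, the number of members called lower was 0 to 1, that of other immediate early genes called lower 1 to 2, and those of kinases and cofactors called higher and lower 3 to 9 and 0 to 1. The log2 fold change of CCN1 lay between -0.10 and 0.024, the highest value without control replicate 3. The causes were not tested. FOSB, FOS and EGR1 had the fewest reads of the members, and for FOSB depth left 26 and 23 reads over the groups.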

Other observations

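Among the other immediate early genes, 5 more are given here. They were named after their values had been seen. ZFP36, ZFP36L1 and ZFP36L2, which bind AU-rich elements and promote the decay of mRNAs such as those of immediate early genes and cytokines, were all called higher. ZFP36 went from 24.7 ± 1.07 to 86.9 ± 8.72 CPM, or 1.82 ± 0.13 on the log2 scale (SE; edgeR FDR 3.26e-06). For ZFP36L1 and ZFP36L2 the log2 fold changes were 0.63 and 0.54 (FDR 8.93e-04 and 0.00230, edgeR). BTG2, a relative of BTG1 that recruits the deadenylase complex, rose by 1.01 ± 0.11 on the log2 scale (SE; edgeR FDR 5.20e-05). NR4A2, a relative of NR4A1 with 27 reads in control and 69 in CD, rose by 1.32 ± 0.32 (SE; edgeR FDR 0.00729). All 5 genes were called in the same direction under each alternative in which they were tested, 15 settings for NR4A2 and 16 for the others.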
